A study of Mus musculus with 24 samples.

Results

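The comparison described here is liver gene expression in male BALB/c mice on a diet with 0.1% quercetin, the lowest dose of the study, against mice on the control diet. Its members were the 6 arrays labelled as liver from the 0.1% diet and the 6 labelled as liver from the control diet, 12 of the 24 arrays in the study. The other 12 arrays come from mice given 0.5% or 1.0% quercetin, 6 of each, and entered the fit and the comparison of doses. Every mouse was obtained at 6 weeks of age, ate a nonpurified diet for about a week and then ate the purified diet AIN93G for 14 days, with or without quercetin. All 4 groups therefore shared strain, sex, basal diet and housing, with the dark phase during the daytime hours and 3 mice to a cage. The cage of each mouse is not given in the sources used here, so cage and diet cannot be told apart, and neither is the hour at which each mouse was killed. One Affymetrix expression array was run per mouse. A p-value here rests on the spread between animals within a diet, pooled over the 4 diets. Its units were mice and not cages.

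Quercetin is a flavonol of many plant foods, and after a meal the gut and liver convert most of it to glucuronide, sulfate and methyl conjugates. It is studied in liver mainly as a ligand or modulator of xenobiotic receptors, as an inducer of antioxidant enzymes through the factor Nrf2 and for effects on lipid metabolism. The liver also runs a strong circadian programme. In it, the factors CLOCK and BMAL1 (gene Arntl) drive the genes of the REV-ERB receptors (Nr1d1 and Nr1d2), the period and cryptochrome repressors and the output factor DBP through DNA elements called E-boxes. The REV-ERB receptors in turn repress Arntl and Npas2, while DBP, TEF and HLF act on their targets through D-boxes. Because of this cycle, the level of such a gene in a liver depends on the hour at which the tissue is taken.

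Levels below are log2(intensity + 1) after quantile normalization, and a difference is the 0.1% mean minus the control mean on that scale, with its standard error (SE) from limma. Each of 18193 genes was represented by 1 probe set. In this comparison 0 genes passed a Benjamini-Hochberg adjusted p of 0.05 in limma, which is 0% of those tested, and the smallest adjusted p was 0.152. An unadjusted p under 0.05 was found for 930 genes, or 5.11%, of which 503 (2.76%) were higher and 427 (2.35%) lower at 0.1%. Without normalization between arrays 699 were higher and 163 lower, so the share of higher genes went from 54.1% to 81.1%, and the median of all genes lay at 0.11. The values of the 6 treated mice did not overlap those of the 6 control mice for 71 genes, or 0.39%, with 34 (0.187%) higher and 37 (0.203%) lower. The intervals that follow are unadjusted and bound the size of single differences. Which sizes would pass the adjusted threshold cannot be read from them, and Klf10, at a difference of -1.05, did not pass. The 95% interval of the difference lay within 1 log2 unit of 0 for 10776 genes, or 59.2%, and for 8595 of the 9097 genes at or above the median signal. The median SE was 0.28 over all genes and 0.15 over those brighter genes.

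**Figure D1:**
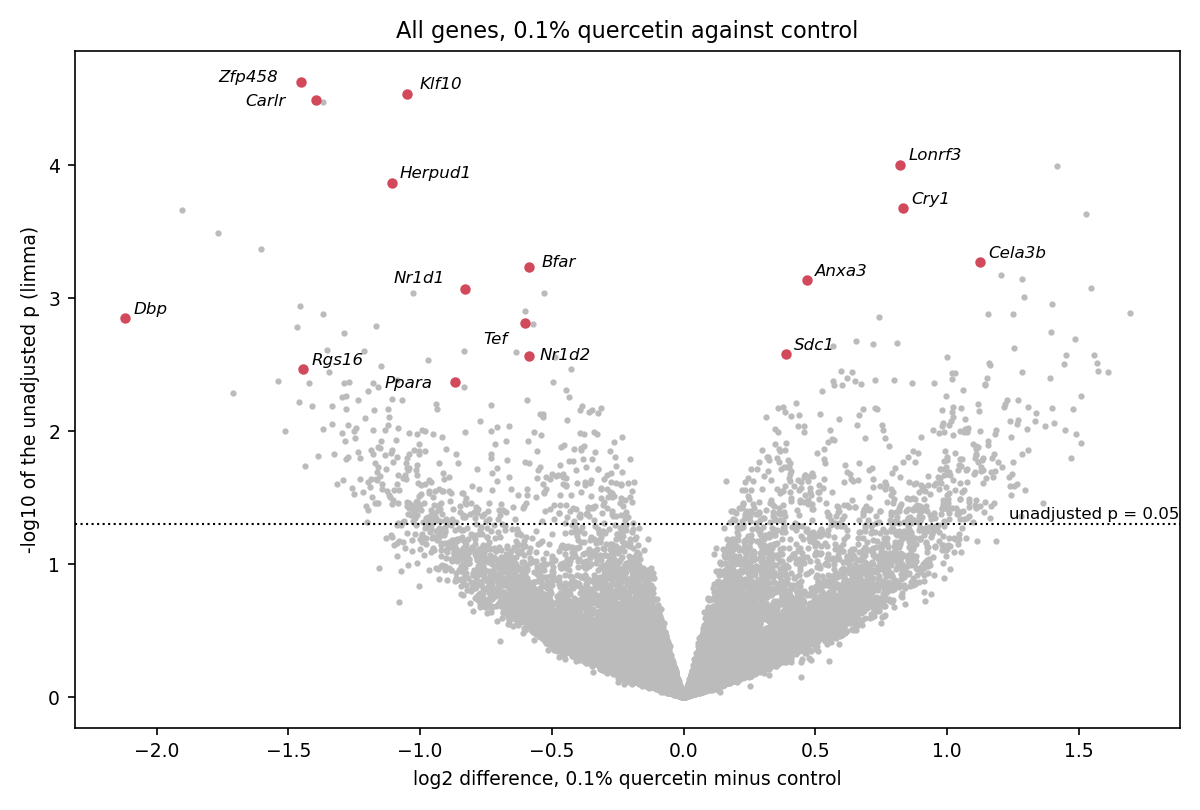
Each point is 1 of 18193 genes, with the log2 difference between 0.1% quercetin and control on the x axis and the -log10 of limma's unadjusted p on the y axis; the dotted line marks an unadjusted p of 0.05 and red points carry names. Klf10, Herpud1 and Dbp lie at the lower side at -1.05, -1.11 and -2.12, Cry1 and Lonrf3 at the higher side at 0.83 and 0.82, and no gene passed after adjustment.

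Hepatocyte markers were measured in every array. Albumin (Alb) lay between 13.1 and 13.3 in each of the 12 arrays and Apoa1, the main apolipoprotein of HDL, between 13.2 and 13.4. Deposited array medians of the 12 ran from 4.78 to 7.58 before normalization, and Pearson correlations among them from 0.94 to 0.95 after it.

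Genes of the circadian clock were among those with the smallest unadjusted p, most of them lower at 0.1% and Cry1 higher. Of the 19 clock genes listed, 18 were measured, and 6 of these (33.3%, against 5.11% of all genes) had an unadjusted p under 0.05. These were Cry1 on the higher side and Nr1d1, Dbp, Tef, Nr1d2 and Bhlhe40 on the lower side. None passed after adjustment over all genes. In a fit of the 12 compared arrays alone, 9 of the 18 had an unadjusted p under 0.05. Over all genes that fit gave 608 higher and 541 lower at this p, and its smallest adjusted p was 0.127. The list had 6 members above and 12 below control with a median of -0.23, where the median over all genes was 0.012, and its median was -0.14 without normalization. The list was written with earlier results of these data known, so this count describes these mice and is not independent support.

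Several clock genes carry an E-box, CACGTG, in the 250 bases before their start, and the sequences below show where it lies in the named genes Cry1, Tef and Lonrf3, which were chosen for display because they hold it. On either strand of this window, CACGTG was found in 6.86% of 27025 genes with a promoter entry, in 5 of the 16 clock genes with an entry (Bhlhe41, Ciart, Cry1, Per1 and Tef) and in 4 of 23 of the genes named for their p-value (Akr1c21, Cry1, Lonrf3 and Tef). The sequences are RefSeq promoters of the build GRCm38.p6, printed 5' to 3' on the gene's own strand with the E-box in capitals. Cry1 lies on chromosome 10, Tef on chromosome 15 with 2 annotated starts, and Lonrf3 on chromosome X. The E-box begins 60 bases before the start of Cry1, 127 and 138 bases before the starts of Tef, and 45 bases before that of Lonrf3.
Cry1 chr10:85185055-85185304, minus strand: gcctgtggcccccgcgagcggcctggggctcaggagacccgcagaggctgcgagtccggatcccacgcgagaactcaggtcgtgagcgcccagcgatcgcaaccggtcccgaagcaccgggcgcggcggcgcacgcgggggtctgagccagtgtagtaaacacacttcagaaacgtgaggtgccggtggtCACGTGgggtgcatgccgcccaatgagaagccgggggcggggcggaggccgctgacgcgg
Tef chr15:81802423-81802672, plus strand: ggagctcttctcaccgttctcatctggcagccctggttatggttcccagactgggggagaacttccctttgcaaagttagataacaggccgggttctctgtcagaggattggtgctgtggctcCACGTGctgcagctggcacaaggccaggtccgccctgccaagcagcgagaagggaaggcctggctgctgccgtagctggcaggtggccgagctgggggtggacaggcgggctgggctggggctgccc
Tef chr15:81811164-81811413, plus strand: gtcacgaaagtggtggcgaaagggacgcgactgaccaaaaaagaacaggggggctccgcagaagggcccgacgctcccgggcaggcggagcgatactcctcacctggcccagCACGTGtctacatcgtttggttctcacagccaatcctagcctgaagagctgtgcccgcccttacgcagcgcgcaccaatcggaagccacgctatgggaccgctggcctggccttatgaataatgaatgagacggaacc
Lonrf3 chrX:36328159-36328408, plus strand: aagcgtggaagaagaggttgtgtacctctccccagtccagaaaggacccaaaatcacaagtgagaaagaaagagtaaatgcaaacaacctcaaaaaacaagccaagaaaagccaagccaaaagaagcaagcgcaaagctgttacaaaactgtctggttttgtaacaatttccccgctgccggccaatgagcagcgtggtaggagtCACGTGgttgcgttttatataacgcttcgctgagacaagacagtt
The related letters CACGTT were found in 4.5% of genes and in 3 of 16 clock genes (Cry1, Cry2 and Nr1d1), and the D-box TTATGTAA in 0.977% of genes and in Per3 alone among the clock genes. The letters TAGGTCA, bound by ROR and REV-ERB receptors, were found in 2.55% of genes and in Nfil3 alone, and TGACGTCA, the cAMP response element, in 1.77% of genes and in Hlf alone. These are matches of letters in 1 window and were not measured as binding sites here.

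Dbp (Entrez gene 13170), the D-box activator whose RNA swings widely over the day in liver, had the largest difference of the named genes. In control livers it ran from 5.22 through a median of 6.78 to 8.04, and at 0.1% from 3.68 through 4.04 to 6.48. The groups overlapped through replicate 4 of the 0.1% diet, at 6.48, while 4 of the other 5 treated livers lay at 4.07 or below. The difference was -2.12 (SE 0.58, limma adjusted p = 0.827), and all 6 treated livers lay below the control mean. Its relative Tef (Entrez gene 21685) ran from 6.49 through 6.84 to 7.13 in control and from 6.05 through 6.14 to 6.44 at 0.1%, with no overlap. Tef differed by -0.60 (SE 0.17, limma adjusted p = 0.85), and its 2 other probe sets had the same sign. Hlf, the remaining member of this family, differed by -0.19 (SE 0.18).

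The REV-ERB genes lay lower together. Nr1d1 ran from 5.18 through 5.91 to 6.45 in control and from 4.24 through 5.14 to 5.39 at 0.1%. The groups overlapped only between 5.18 and 5.39, and the difference was -0.83 (SE 0.22, limma adjusted p = 0.792). Nr1d2 ran from 7.72 through 8.09 to 8.25 in control and from 7.08 through 7.33 to 8.17 at 0.1%, with replicate 4 again inside the control range and the other 5 treated livers below it. It differed by -0.59 (SE 0.17, limma adjusted p = 0.878). Bhlhe40, a repressor of the clock, ran from 7.37 through 7.50 to 7.86 in control and from 6.76 through 7.14 to 7.26 at 0.1%, without overlap, a difference of -0.46 (SE 0.19, limma adjusted p = 0.942).

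Cry1 (Entrez gene 12952), a repressor of CLOCK and BMAL1, went the other way. It ran from 4.33 through 4.54 to 4.79 in control and from 5.18 through 5.41 to 5.57 at 0.1%, so that the lowest treated liver lay above the highest control. The difference was 0.83 (SE 0.19, limma adjusted p = 0.424), a 1.78-fold size. Npas2, the partner of BMAL1 that can replace CLOCK, and Arntl were also higher on average without reaching an unadjusted p of 0.05. Npas2 ran from 2.71 through 3.30 to 4.26 in control and from 3.67 through 4.21 to 4.65 at 0.1%, a difference of 0.86 (SE 0.43). Arntl ran from 5.43 through 5.72 to 6.05 and from 5.65 through 6.16 to 6.32, a difference of 0.35 (SE 0.35). Its SE and p take in the spread within all 4 diets, and at 0.5% and 1.0% Arntl ran from 3.27 to 5.75. The period genes did not separate the groups, with Per2 at -0.60 (SE 0.32), Per1 at -0.55 (SE 0.58) and Per3 at -0.35 (SE 0.52). Of the rest, Clock differed by -0.19, Rora by -0.26, Cry2 by -0.20, Nfil3 by 0.11, Bhlhe41 by 0.15 and Ciart by 0.66. The clock genes without a named p-value rank are given here to complete the list.

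**Figure D2:**
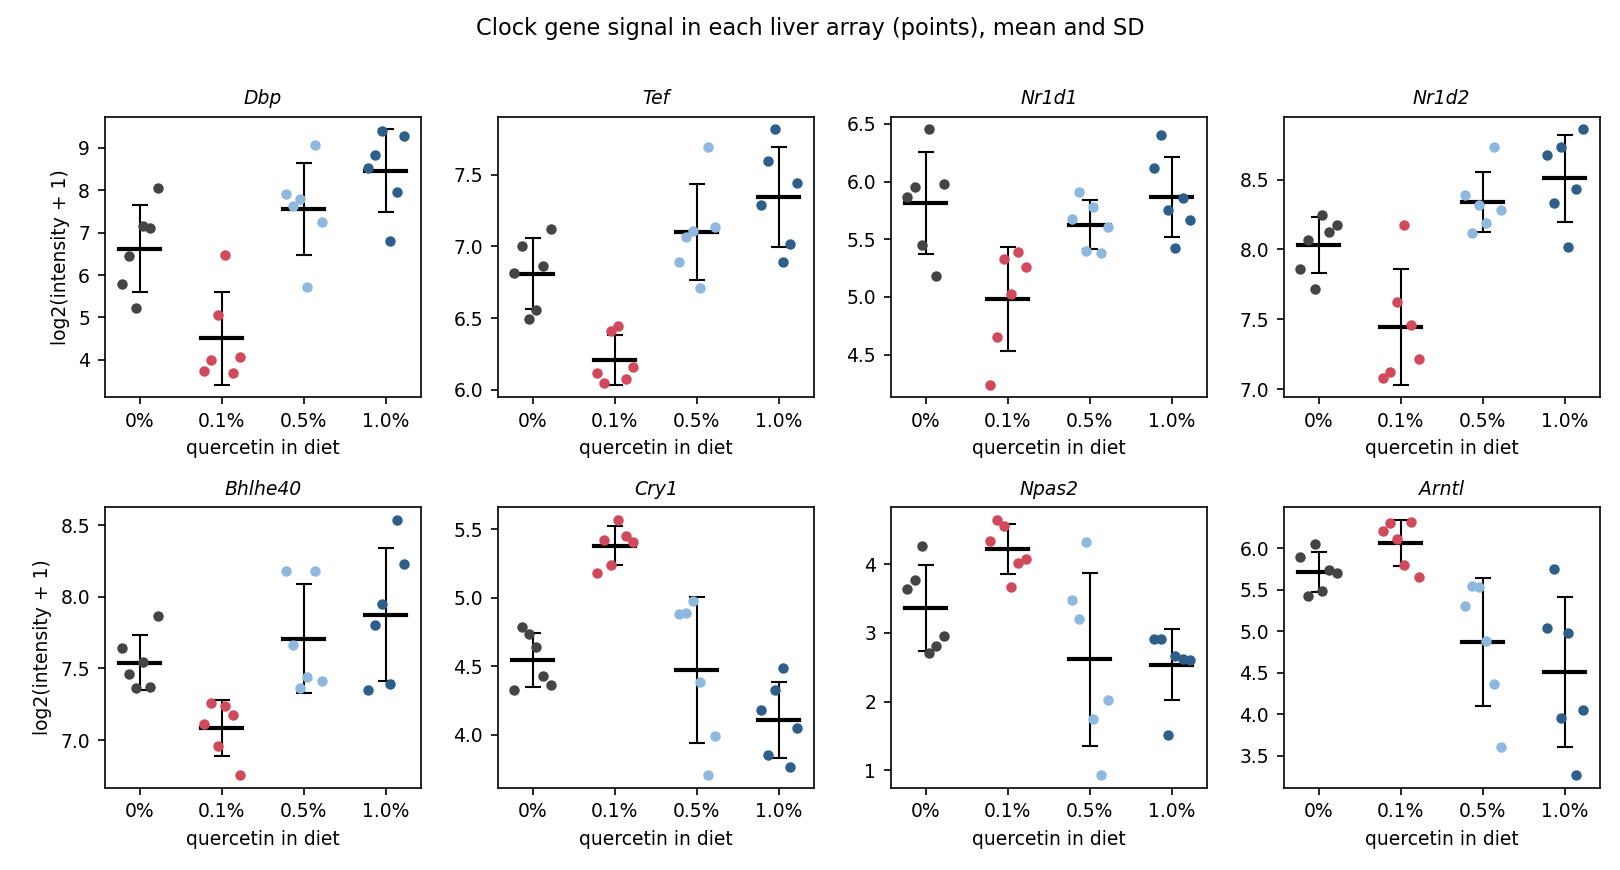
Each panel is 1 clock gene, with the quercetin content of the diet on the x axis and log2(intensity + 1) on the y axis; points are single mice (6 per diet), the wide bar is the mean and the error bar 1 SD. At 0.1% Dbp, Tef, Nr1d1, Nr1d2 and Bhlhe40 have their lowest mean and Cry1, Npas2 and Arntl their highest of the 4 diets.

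Several clock genes differed between 0.1% and the higher doses after adjustment over all genes, in tests that share the 0.1% arrays with the comparison above. Against 1.0%, 46 genes (0.253%) passed, 21 of them (0.115%) higher at 1.0% and 25 (0.137%) lower. Against 0.5%, 39 genes (0.214%) passed, with 26 higher (0.143%) and 13 lower (0.0715%) at 0.5%. Both sets contained the same 4 of the 18 clock genes, namely Dbp, Tef, Nr1d2 and Cry1. Dbp ran from 5.72 through 7.71 to 9.07 at 0.5% and from 6.80 through 8.68 to 9.40 at 1.0%. It was higher than at 0.1% by 3.06 (SE 0.58, limma adjusted p = 0.0303) at 0.5% and by 3.96 (SE 0.58, limma adjusted p = 0.00302) at 1.0%, and the lowest 1.0% liver lay above the highest 0.1% liver. Tef was higher by 0.89 (SE 0.17, limma adjusted p = 0.0303) and 1.13 (SE 0.17, limma adjusted p = 0.00302) at these doses, and Nr1d2 by 0.89 (SE 0.17, limma adjusted p = 0.0303) and 1.06 (SE 0.17, limma adjusted p = 0.00599). Cry1 was lower at both doses, with differences from 0.1% of -0.90 (SE 0.19, limma adjusted p = 0.0449) at 0.5% and -1.27 (SE 0.19, limma adjusted p = 0.00302) at 1.0%. Nr1d1 did not pass, at 0.64 (SE 0.22, limma adjusted p = 0.285) and 0.89 (SE 0.22, limma adjusted p = 0.0899).

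For the 4 clock genes that passed, the difference from control had 1 sign at 0.1% and the other at 0.5% and 1.0%. They were picked for a difference between 0.1% and the higher doses. That choice favours opposite signs, so the signs are not separate support for a change at 0.1%. Most other genes that passed likewise lay on opposite sides of control at 0.1% and at the dose they passed for. The signs were not tested, and Cry1 at 0.5% lay near control. Against control, Dbp stood at -2.12 at 0.1%, 0.94 at 0.5% and 1.84 at 1.0%, Tef at -0.60, 0.29 and 0.53, Nr1d2 at -0.59, 0.31 and 0.48, and Cry1 at 0.83, -0.073 and -0.44. Nr1d1, which did not pass, stood at -0.83, -0.19 and 0.056. These differences share the 6 control arrays. The calls against 1.0% held under 16 of 16 alternatives for Dbp and Cry1 and 15 of 16 for Tef and Nr1d2. Against 0.5% they held under 10 of 16 for Dbp, 9 for Tef, 8 for Nr1d2 and 5 for Cry1. Leaving out 1 array of the 0.1% diet moved the counts as well: the 39 genes against 0.5% became 6, 5, 6, 7 and 4 without replicate 1, 2, 3, 5 or 6, and the 46 against 1.0% became 20, 19, 25 and 18 without replicate 1, 2, 3 or 5.

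Outside the clock list, Klf10 (Entrez gene 21847), an immediate early zinc finger repressor, had the smallest unadjusted p of the genes at or above the median signal. It ran from 6.25 through 6.61 to 6.92 in control and from 5.26 through 5.46 to 5.93 at 0.1%, with no overlap. The difference was -1.05 (SE 0.20, limma adjusted p = 0.152), a 2.07-fold size. Klf10 was higher than at 0.1% by 1.05 at 0.5% (SE 0.20, limma adjusted p = 0.0303) and by 1.34 at 1.0% (SE 0.20, limma adjusted p = 0.00302). These calls held under 10 of 16 alternatives at 0.5% and 15 of 16 at 1.0%. Against control, Klf10 at 0.5% differed by 0.0014. Among the 18 immediate early genes measured, Nr4a1, an orphan nuclear receptor, was the other member with an unadjusted p under 0.05, at 0.55 (SE 0.26). Klf10 and Nr4a1, 1 lower and 1 higher, made up 11.1% of the list, against 5.11% of all genes. Fos, Jun, Egr1 and Myc differed by -0.13, 0.16, -0.09 and 0.30, none with an unadjusted p under 0.05, and 6 members lay above and 12 below control.

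Lonrf3 (Entrez gene 74365), which encodes a RING finger protein with a LON domain, ran from 3.95 through 4.41 to 4.93 in control and from 5.04 through 5.28 to 5.45 at 0.1%. No treated liver reached down to the control range, and the difference was 0.82 (SE 0.17, limma adjusted p = 0.308). Lonrf3 was the gene with the smallest adjusted p between 0.1% and 1.0%, at a difference of -1.43 (SE 0.17, limma adjusted p = 0.000632), and at 0.5% its difference from 0.1% was -0.89 (SE 0.17, limma adjusted p = 0.031). Klf9, a glucocorticoid-responsive zinc finger factor, ran from 9.33 through 9.44 to 9.64 in control and from 9.02 through 9.14 to 9.28 at 0.1%, without overlap. It differed by -0.34 (SE 0.12, limma adjusted p = 0.878), and all 6 of its other probe sets had the same sign. Lpin2, a phosphatidate phosphatase of triglyceride synthesis, ran from 7.19 through 7.35 to 7.78 in control and from 6.71 through 6.88 to 7.09 at 0.1%, also without overlap, a difference of -0.54 (SE 0.18, limma adjusted p = 0.878). Both were higher at the other doses than at 0.1%. Klf9 was higher by 0.86 (limma adjusted p = 0.00236) at 0.5% and by 0.73 (limma adjusted p = 0.00639) at 1.0%. Lpin2 was higher by 1.05 (limma adjusted p = 0.0249) at 0.5% and by 1.10 (limma adjusted p = 0.00668) at 1.0%. Of 16 alternatives, the calls at 0.5% held under 7 for Lonrf3, 16 for Klf9 and 9 for Lpin2. Those at 1.0% held under 16, 14 and 14.

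Rgs16, an inhibitor of G protein signalling in liver, ran from 7.46 through 8.18 to 8.30 in control and from 5.85 through 6.30 to 7.93 at 0.1%. Replicate 5 of the 0.1% diet, at 7.93, fell inside the control range and the other 5 treated livers below it. The difference was -1.44 (SE 0.44, limma adjusted p = 0.878), with the same sign in its 2 other probe sets. Among the remaining genes higher at 0.1%, Sdc1, the heparan sulfate proteoglycan syndecan, ran from 8.11 through 8.49 to 8.58 in control and from 8.65 through 8.75 to 9.05 at 0.1%, with no overlap. Its difference was 0.39 (SE 0.11, limma adjusted p = 0.878) and its 3 other probe sets had the same sign. Slc2a1, the glucose transporter GLUT1, differed by 0.73 (SE 0.23), Nlrc5, an activator of MHC class I genes, by 0.64 (SE 0.20, without overlap), Anxa3, an annexin, by 0.47 (SE 0.12) and Ppp1r10, a regulatory subunit of protein phosphatase, by 0.72 (SE 0.21, without overlap). Akr1c21, a hydroxysteroid dehydrogenase, differed by 0.80, Thoc3, a subunit of the THO mRNA export complex, by 0.57, and Klhl15, Zfand4, Zfp386, Zfp608 and Garre1 by 0.60 to 1.02. With the mean of all its probe sets Garre1 differed by 0.020, Klhl15 by 0.14 and Zfp386 by 0.24, and with a pseudocount of 16 Zfp608 differed by 0.35. Cela3b, a pancreatic elastase gene, was higher by 1.12 (SE 0.28, limma adjusted p = 0.748), while its 3 other probe sets had the opposite sign and the other 5 acinar markers measured ran from -0.19 to 0.41.

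Of the genes lower at 0.1%, Bfar, a membrane-bound regulator of apoptosis, ran from 6.85 through 7.12 to 7.46 in control and from 6.21 through 6.52 to 7.11 at 0.1%, with replicate 4 inside the control range. The difference was -0.59 (SE 0.15, limma adjusted p = 0.759), with the same sign in its 2 other probe sets, and Bfar was higher by 0.69 at 0.5% than at 0.1% (SE 0.15, limma adjusted p = 0.0481). That call held under 8 of 16 alternatives, and the difference of 0.50 at 1.0% did not pass (limma adjusted p = 0.196). Gigyf2, a translational repressor, ran from 5.19 through 5.51 to 5.87 and from 4.78 through 5.04 to 5.17, without overlap, a difference of -0.49 (SE 0.16). Hdac7, a class II histone deacetylase, differed by -0.83 (SE 0.24), Rab30, a Golgi GTPase, by -0.97 (SE 0.29), Plekhf1 by -0.57 (SE 0.16), Lima1, an actin-binding protein, by -0.43 (SE 0.13) and Ccdc71l by -0.64 (SE 0.19), with limma adjusted p of 0.85 or above. Npepps, an aminopeptidase, differed by -0.49 on the probe set used but by 0.027 over the mean of its probe sets. Zfp458 and Carlr had small unadjusted p at dim signals, so that their sizes are uncertain. Zfp458 ran from 3.16 to 3.52 in control and from 0.92 to 2.50 at 0.1% (limma adjusted p = 0.152), and its other probe set went the opposite way at an unadjusted p under 0.05. Carlr ran from 1.89 to 2.75 and from 0.28 to 2.12 (limma adjusted p = 0.152), and it passed, at an adjusted p of 0.00817, without replicate 5 of the 0.1% diet.

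Genes of protein folding were lower on average. The unfolded protein response, which adjusts the folding and degradation capacity of the endoplasmic reticulum, had 20 of 28 members below control, where 47.7% of all genes were below, and a median of -0.12, and 16 were below without normalization. Herpud1 (Entrez gene 64209), a component of ER-associated degradation, was the single member with an unadjusted p under 0.05. It ran from 9.92 through 10.6 to 11.3 in control and from 9.17 through 9.44 to 9.96 at 0.1%, so that replicate 4 of the 0.1% diet, at 9.96, lay above the lowest control. The difference was -1.11 (SE 0.24, limma adjusted p = 0.351), and Herpud1 was higher by 1.35 at 0.5% than at 0.1% (SE 0.24, limma adjusted p = 0.0282). That call held under 10 of 16 alternatives, and the difference of 1.03 at 1.0% did not pass (limma adjusted p = 0.0737). Dnajb9, an ER co-chaperone, differed by -0.63 (SE 0.31), the ubiquitin ligase gene Syvn1 by -0.33 (SE 0.19) and Selenos by -0.20 (SE 0.11). The promoters of 9 of the 25 list members with an entry held the ER stress response element, against 0.13% of all genes; Syvn1 was among them and Herpud1 was not.

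All 22 heat shock genes measured, chaperones of the cytosol and mitochondria and their helpers, lay below control on average, none with an unadjusted p under 0.05, and 16 did so without normalization. The median was -0.25. This rested largely on replicate 2 of the control diet, the highest control array for 20 of the 22 members. Without it 17 of 22 lay below control and the median was -0.071, while the unfolded protein response kept 18 of 28 below and a median of -0.085. Hspa1a, an inducible HSP70 gene, ran from 3.12 through 4.26 to 7.62 in control, and the highest control other than replicate 2 was at 4.74, against 3.45 through 4.21 to 4.54 at 0.1%. It differed by -0.52 (SE 0.66) with that array and by 0.079 without it. Its near-identical neighbour Hspa1b, whose signal the array may not separate from it, ran from 7.69 through 8.54 to 11.7 in control and from 6.77 through 7.93 to 8.79 at 0.1%, and differed by -1.07 with that array and by -0.53 without it. Dnajb1 went from -0.60 to -0.30, Hsph1 from -0.82 to -0.53, Bag3 from -0.45 to -0.16, Hspb1 from -0.28 to 0.044 and Hsp90aa1 from -0.23 to -0.00015 on leaving that array out. Hspa8, the constitutive HSP70 gene, was higher by 1.09 at 0.5% than at 0.1% (SE 0.22, limma adjusted p = 0.0424), on a probe set whose type may also detect related genes. Its call against 0.1% held under 7 of 16 alternatives, and at 1.0% it differed from 0.1% by 0.56 and did not pass (limma adjusted p = 0.413). Without control replicate 2 the clock list kept a median of -0.23, while that of the glucocorticoid list went from 0.013 to 0.15, of the B cell markers from -0.065 to 0.15, of the erythroid markers from 0.062 to -0.039 and of the acinar markers from 0.092 to 0.0055. The heat shock element was found in the promoters of Hspd1 and Hspe1 among 18 members with an entry, against 0.514% of all genes.

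**Figure D3:**
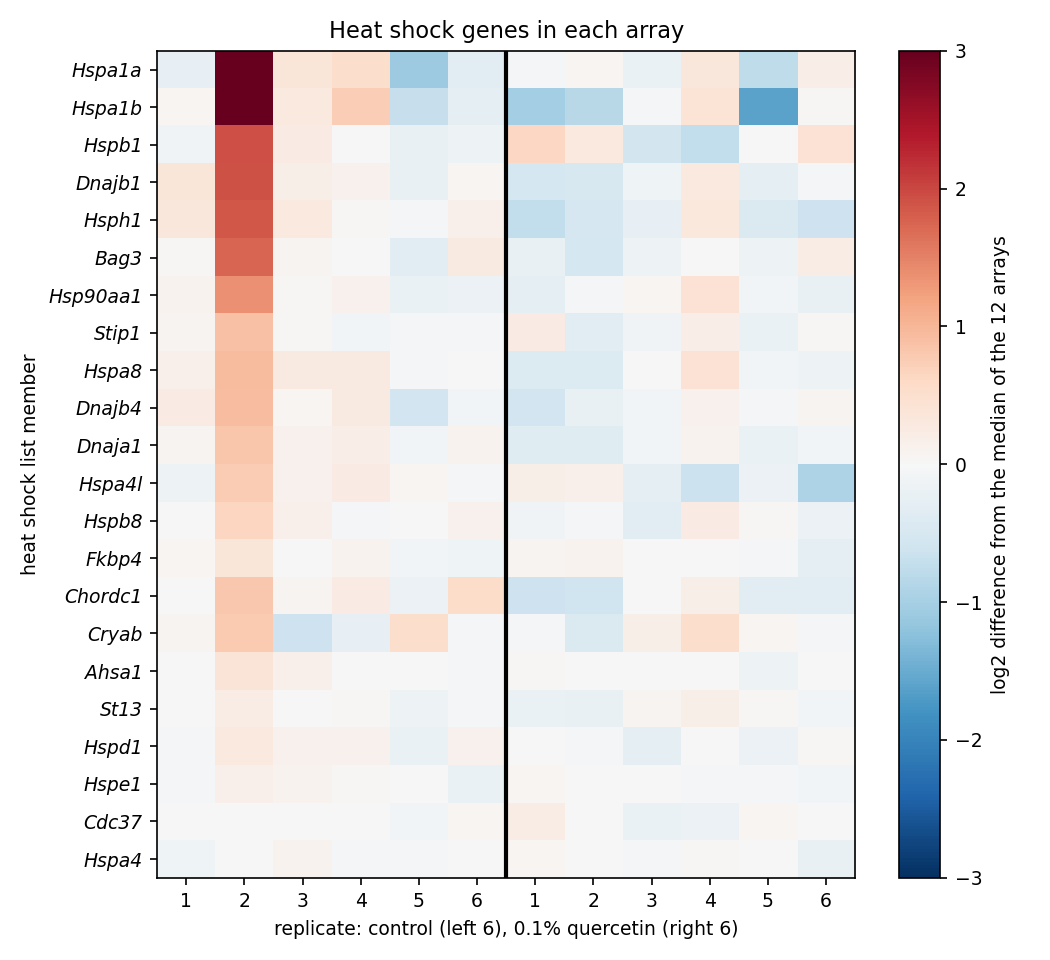
Rows are the 22 heat shock genes and columns the 12 arrays, 6 control and 6 with 0.1% quercetin; colour gives the log2 difference from the gene's median over the 12 arrays, with values beyond 3 drawn in the end colour. Control replicate 2 stands out in red for most rows, led by Hspa1a at 7.62 and Hspa1b at 11.7.

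Lists of genes linked to the handling of flavonoids and oxidants had medians near 0, with larger differences in single members. The conjugation list ran from -0.17 to 0.56. For the 14 measured genes of flavonoid conjugation and transport, 11 lay above control, where 52.3% of all genes were above, with a median of 0.053 and none had an unadjusted p under 0.05. Sult1a1, a phenol sulfotransferase, ran from 9.96 through 10.05 to 10.4 in control and from 10.1 through 10.3 to 10.6 at 0.1%, with overlap, a difference of 0.23 (95% interval -0.003 to 0.45). Abcg2, an efflux transporter of conjugates, differed by 0.095 (95% interval -0.10 to 0.29). Of 21 Nrf2 targets, 10 lay above and 11 below, and the median was -0.0067. Hmox1, heme oxygenase, was the single Nrf2 target with an unadjusted p under 0.05. It ran from 4.78 through 5.00 to 5.29 in control and from 4.26 through 4.42 to 4.98 at 0.1%, with overlap, a difference of -0.47 (SE 0.20, limma adjusted p = 0.956). Nqo1, a quinone reductase, differed by -0.45 (95% interval -1.14 to 0.23), with replicate 2 of the 0.1% diet at 1.41 and the other 5 treated livers between 3.21 and 3.67. Without that array Nqo1 differed by -0.11. Gclc and Gclm, the subunits of glutamate cysteine ligase, differed by -0.20 and -0.11. All 11 antioxidant enzymes measured had a 95% interval within 1 log2 unit of 0, with differences from -0.098 to 0.13, among them catalase (Cat) at 0.13 and Gpx1 at -0.054.

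Targets of the xenobiotic receptors had list medians near 0. The 9 Ahr targets had a median of -0.093 and the 15 targets of CAR and PXR a median of -0.027, and neither list had a member with an unadjusted p under 0.05. Cyp1a1, the classical Ahr target, ran from 2.77 through 3.28 to 3.85 in control and from 2.38 through 3.05 to 3.40 at 0.1%, with wide overlap, a difference of -0.27 (95% interval -0.92 to 0.37). Its signal was low in all 12 arrays, which limits what this interval can show. Arnt, the partner of Ahr, differed by -0.28 (95% interval -0.73 to 0.16) and Cyp3a13 by 0.29 (95% interval -0.050 to 0.63). Nr1i2, which encodes PXR, differed by -0.17 (95% interval -0.43 to 0.091) and was higher by 0.61 at 1.0% than at 0.1% (limma adjusted p = 0.0371). Alas1 was the lowest CAR and PXR member, at -0.53, and was higher by 2.79 at 0.5% than at 0.1% (limma adjusted p = 0.00236). Its difference from control rested largely on control replicate 2, at 9.44, where the other controls ran from 7.18 to 7.72. At 0.1% Alas1 ran from 6.92 to 7.87.

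Lipid and glucose genes gave a mixed picture. Ppara, the receptor gene that heads the program of fatty acid oxidation, ran from 8.83 through 9.31 to 9.54 in control and from 8.05 through 8.39 to 8.85 at 0.1%. The groups overlapped by a small margin, at 8.83 to 8.85, and the difference was -0.87 (SE 0.27, limma adjusted p = 0.878) with the same sign in its 2 other probe sets. Of the 27 genes in the PPAR-alpha list, 21 lay below control with a median of -0.057, which was 0.026 without normalization, so the direction of the list depends on the scaling. Among its targets, Pex11a differed by -0.24 (SE 0.12), Eci2 by -0.19 (SE 0.11) and Pdk4, the pyruvate dehydrogenase kinase, by 0.72 (SE 0.39). In fatty acid synthesis 14 of 22 genes lay above control with a median of 0.048. Acly, ATP citrate lyase, differed by 0.59 (SE 0.32) and ran from 8.42 to 9.46 in control. At 0.1% replicates 1 and 2 lay at 10.4 and 10.1 and the rest at 9.36 or below. The same mice had the highest means of this list, 8.66 and 8.67, where the highest control was 8.40. They were also highest for the cholesterol synthesis list, at 7.55 and 7.43, where the highest control was 7.20. For cholesterol synthesis 12 of 17 lay above with a median of 0.10, and Srebf2, its main transcription factor, ran from 3.91 through 4.25 to 4.77 in control and from 4.36 through 4.88 to 5.37 at 0.1%, a difference of 0.54 (SE 0.21, limma adjusted p = 0.942). G6pc, glucose-6-phosphatase, ran from 9.19 through 9.89 to 10.3 and from 10.1 through 10.4 to 10.6, a difference of 0.55 (SE 0.27), and Sgk1, a glucocorticoid-responsive kinase, differed by 0.62 (SE 0.31).

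**Figure D4:**
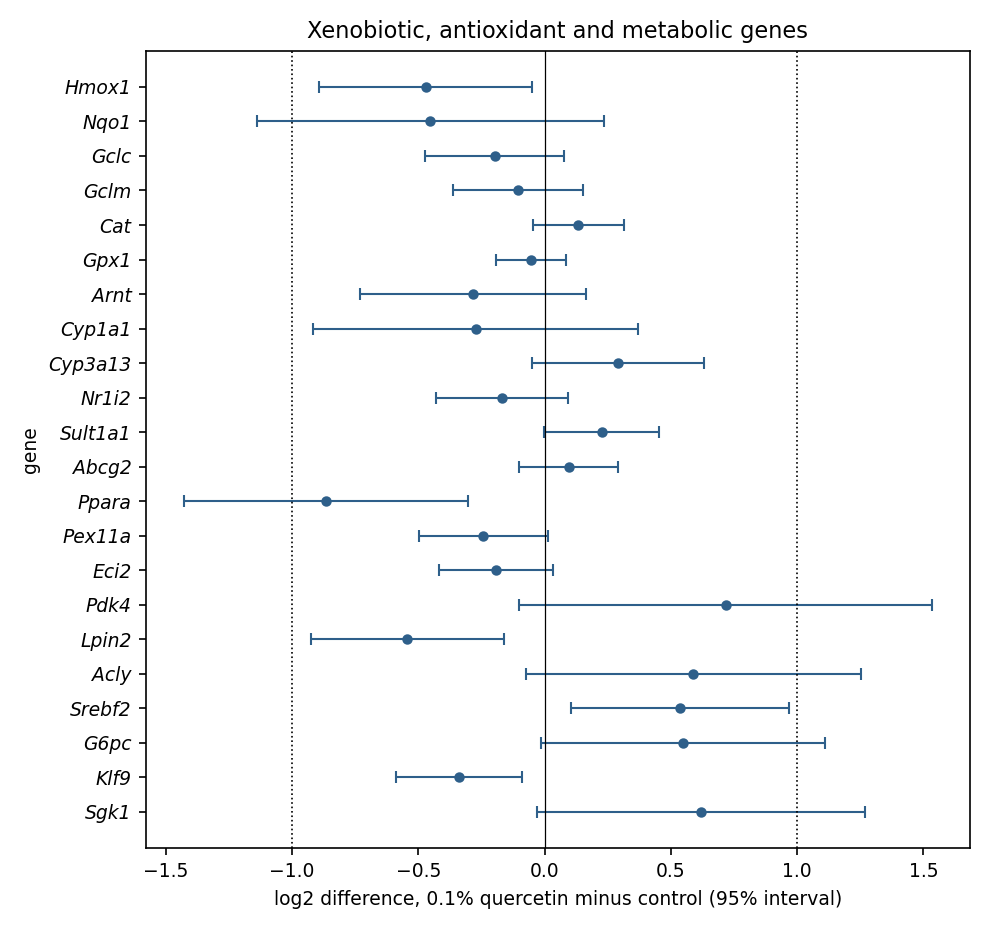
Points are log2 differences between 0.1% quercetin and control with 95% intervals from limma on the x axis, for 22 named genes of xenobiotic, antioxidant and metabolic lists on the y axis; dotted lines mark 1 log2 unit on each side of 0. Gpx1 and Cat have narrow intervals around -0.054 and 0.13, Ppara lies at -0.87 and Pdk4 has an interval from -0.10 to 1.54.

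The interferon and antigen presentation list had 13 of 16 members above control and a median of 0.096, with 3 members at an unadjusted p under 0.05 (18.8%, against 5.11% of all genes). Ifit2, an interferon-induced inhibitor of translation, ran from 2.79 through 3.10 to 3.74 in control and from 3.41 through 3.93 to 4.30 at 0.1%, with overlap, a difference of 0.66 (SE 0.23, limma adjusted p = 0.878). Tap1, the peptide transporter of antigen processing, differed by 0.47 (SE 0.21) and Oasl2 by 0.68 (SE 0.31), whereas Iigp1, an interferon-induced GTPase, was lower without overlap at -0.24 (SE 0.14). The smallest differences under any alternative in processing were 0.29 for Ifit2, 0.14 for Tap1 and 0.30 for Oasl2, so their sizes are uncertain. In the acute phase list 16 of 24 lay above control with a median of 0.030. Its one member with an unadjusted p under 0.05 was Orm3, at 1.25 (SE 0.36), on a dim signal with a median of 1.21 in control and 2.69 at 0.1%, and the other acute phase gene named, hepcidin (Hamp), differed by 0.39 (SE 0.25).

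Respiratory chain genes had the narrowest range of the 25 lists, with 27 members between -0.064 and 0.067 and a 95% interval within 1 log2 unit of 0 in each. Among the 18 genes of urea and amino acid metabolism the median was 0.043, and Asl, argininosuccinate lyase, differed by 0.20 (SE 0.099). The median was 0.027 in the 14 genes of mitochondrial biogenesis, where Tfb2m, a mitochondrial transcription factor, differed by -0.30 (SE 0.12). In the 13 sex-biased genes it was -0.034, with the major urinary protein gene Mup3 at -0.23 (SE 0.10) and the elongase gene Elovl3 at 0.34 (SE 0.17). Medians were -0.042 for 19 bile acid and sterol genes, 0.047 for 15 of gluconeogenesis, 0.029 for 11 of glycolysis and glycogen, 0.013 for 13 of the glucocorticoid response, 0.092 for 14 of NF-kB and inflammation, 0.18 for 11 p53 targets and 0.060 for 15 of the cell cycle. In each of these 7 lists at most 1 member had an unadjusted p under 0.05. With arrays unscaled or centred on their medians, the medians of the respiratory chain, urea, mitochondrial, sex-biased, bile acid, gluconeogenesis, glycolysis, glucocorticoid, acute phase, immediate early, Nrf2, antioxidant and CAR and PXR lists, and of the hepatocyte, endothelial, stellate and B cell markers, took the other sign under at least 1 of these scalings. With 1 of the 12 arrays left out, 15 of the 37 list medians took the other sign at least once.

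**Figure D5:**
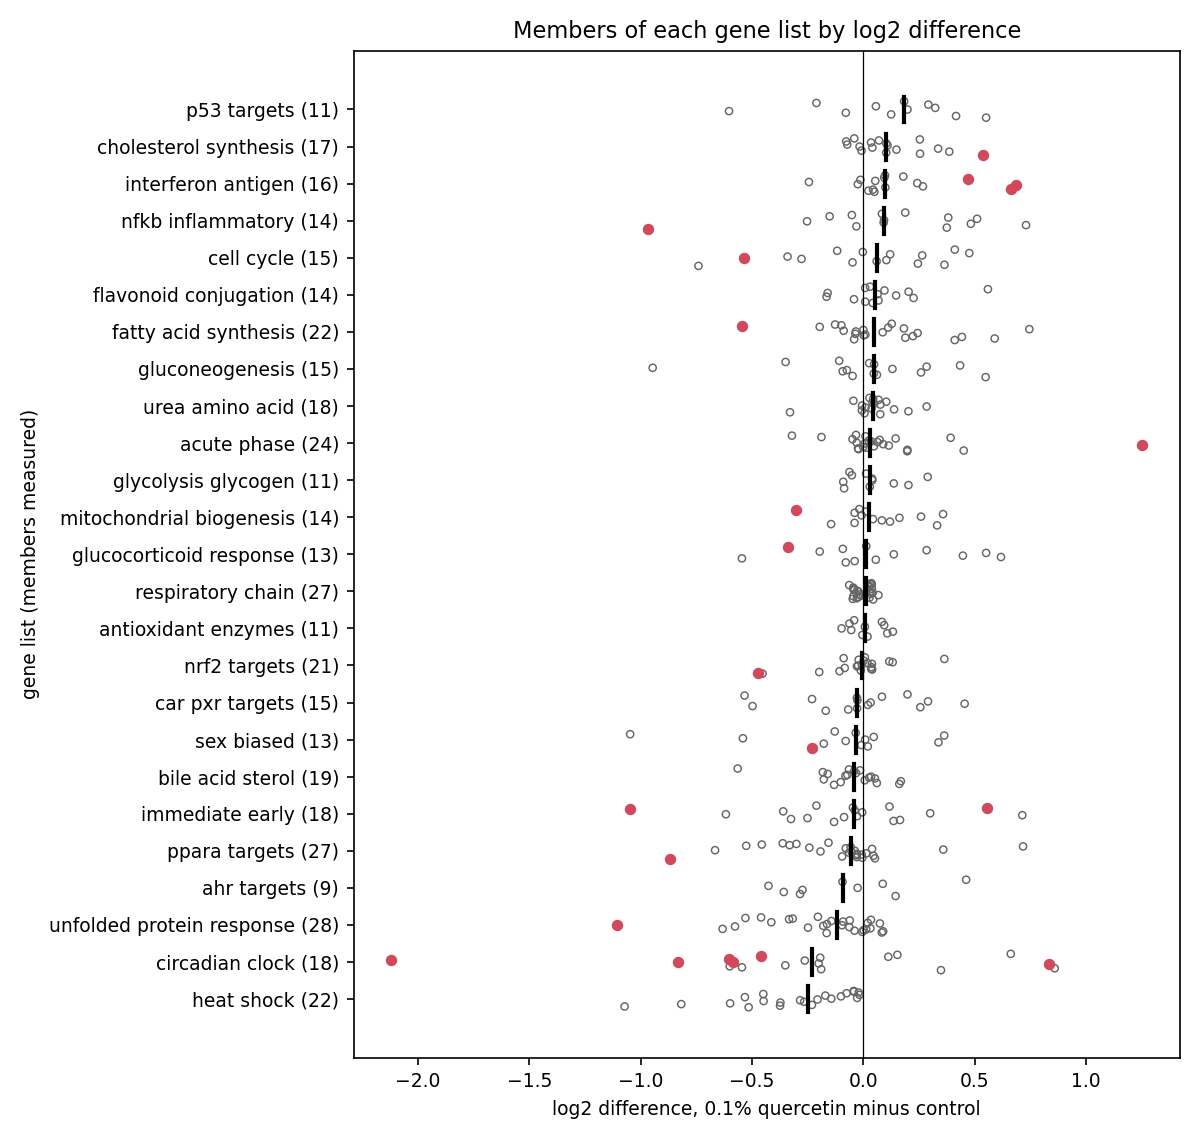
Each row is 1 of 25 gene lists with its number of measured members, and the x axis gives the members' log2 difference between 0.1% quercetin and control; filled red points have an unadjusted p under 0.05, open points do not, and the black bar is the list's median. The clock list spans -2.12 to 0.86 with 6 filled points, the heat shock list has all 22 points below 0, and the respiratory chain lies between -0.064 and 0.067.

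Markers of cell types other than hepatocytes were compared as well, since in bulk liver fewer cells of a type and less RNA per cell cannot be told apart. The T and NK cell markers had 4 of 6 measured members above control and a median of 0.61, at dim signals, and the list's mean level ran from 1.58 to 2.48 in control and from 2.05 to 2.72 at 0.1%. Cd3g, a T cell receptor subunit, ran from 0.69 through 1.28 to 2.21 in control and from 2.59 through 2.84 to 3.23 at 0.1%, without overlap, a difference of 1.51 (SE 0.49, limma adjusted p = 0.878). Gzma differed by 0.99 (SE 0.38) and Nkg7 by 0.96 (SE 0.47), whereas Cd3d and Cd3e, which accompany Cd3g in the same receptor, differed by -0.68 and -0.09. For the 10 Kupffer cell and macrophage markers the median was 0.056, for 8 endothelial markers 0.017, for 9 stellate cell and fibroblast markers 0.040, for 8 neutrophil markers 0.16, for 5 B cell markers -0.065, for 4 erythroid markers 0.062, for 6 muscle markers 0.093 and for 6 pancreatic acinar markers 0.092. These medians rested on single arrays in part: the B cell median was 0.31 without replicate 3 of the 0.1% diet, and the muscle and acinar medians were -0.095 and -0.072 without control replicate 6. Adipocyte and cholangiocyte markers were dim, with medians of -0.62 over 4 and -0.25 over 5 members, Adipoq at -1.09 (SE 0.41) and Krt7 at -1.05 (SE 0.48). The interferon and antigen presentation list and the T and NK markers both had a median above 0 here, and the part of 1 in the other was not tested.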

How the data were processed

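Liver RNA of 24 mice was hybridized to 1 Affymetrix array each, per the labels. The authors deposited 1 table of linear intensity values for 45101 probe sets; the software and summary behind it are unstated. Here log2(intensity + 1) was quantile-normalized over all arrays. The platform annotation gave 34945 probe sets 1 symbol; 932 had several and 9211 were not listed. The probe set with the highest mean over 24 arrays stood for each of 18193 genes.

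All arrays entered 1 limma 3.58.1 fit (R 4.3.3, eBayes, two-sided), with Benjamini-Hochberg adjustment over all genes at 0.05. The fit was tested on simulated data. Replicate numbers did not pair the samples. Genes were named by rule: any that passed, otherwise the 15 higher and 15 lower with the smallest p among genes at or above the median signal, the 5 smallest of all, up to 4 per list, and members where 1 array decides a list. What counts as 1 array deciding was set after the values were seen, and the other clock, immediate early and T cell receptor genes given were added then. Of 552 list genes 496 were matched, and the rest were not analysed here. The members and lists were chosen with earlier results of these data known. Promoters are from RefSeq (GRCm38.p6); Klf10 is named without one. Alternatives covered scaling, pseudocount, dim genes, probe set handling, eBayes options, array weights, the 12 arrays alone, the replicate block and each array left out. The pseudocount compresses folds of dim genes, but those named for a small p may be overstated, so their sizes are uncertain.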

Additional observations from a re-analysis of the deposited data

Results flagged for a closer look

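Of 238 sets of 6 values looked at (82 of the named genes and 37 list means, in control and at 0.1%), 18 held a sample far from the other 5, where chance gives about 1 in 20. Hspa1a, Hspa1b, Hsp90aa1, Bag3 and Hspb1 were named because control replicate 2 stands apart in them, so their sets say nothing about the rate; without these 5 genes 13 of 228 sets (5.7%) remained, near that rate. Control replicate 2 was the sample in 8 of the 18, and in 3 of the 13. Some genes given above were not looked at in this way, so these counts leave them out. Among them control replicate 2 was also the highest control for Alas1 (9.44, next 7.72), Hspa8 (11.6, next 10.9) and Clock (6.79, next 6.28). The mean of control replicate 2 over the heat shock list was 8.73 and the next control was at 7.78. In that array Hspa1a lay at 7.62, Hspa1b at 11.7, Dnajb1 at 9.03, Hsph1 at 9.14, Bag3 at 7.65, Hspb1 at 7.05 and Hsp90aa1 at 10.8, each above the other 5 control mice. Within the 0.1% diet, replicate 4 had the highest heat shock mean, 7.75 against 7.55 for the next, and the lowest Pdk4, 3.92 against 5.4.

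Other samples stood apart in 1 or 2 values. Replicate 5 of the 0.1% diet was low for the erythroid markers (3.12) and for Gpx1 (12.2), replicate 3 for the B cell markers (3.42) and replicate 2 for Nqo1 (1.41). Control replicate 3 was low for Klhl15 (2.17) and Mup3 (12.0), control replicate 5 was high for the mitochondrial biogenesis list (5.97) and control replicate 1 for Asl (9.08).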

How the results depend on the processing

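In 0.1% against control, 0 genes passed limma's adjusted threshold under every alternative except the fit without 1 array: leaving out each of the 12 arrays gave 0 to 1 gene, the 1 being Carlr without replicate 5 of the 0.1% diet (-1.64, adjusted p = 0.00817). The replicate number as a block also gave 0, with 482 higher and 437 lower at an unadjusted p under 0.05, and correlations of same-numbered samples were at most 0.0209. Without normalization the lower count was 163. The 39 genes for 0.5% against 0.1% became 21 without normalization, 100 with a pseudocount of 16, 70 without the dimmest genes, 21 with the mean of all probe sets, 91 with trend and robust eBayes, 21 with the replicate block and 10 without the 4 arrays apart on the first principal component (an alternative chosen after seeing the data), 4 to 39 without 1 array of the 0.1% diet and 27 to 45 without 1 control array. The 46 genes for 1.0% against 0.1% became 6 without normalization, 20 centred on medians, 111 with the pseudocount, 80 without the dimmest genes and 91 with trend and robust eBayes, 18 to 46 without 1 array of the 0.1% diet and 37 to 45 without 1 control array. Without the 1 array apart on the second principal component, also chosen after seeing the data, the counts were 43 and 48. Signs reversed with the mean of all probe sets for Npepps (0.027), Gclc (0.045), Arnt (0.022) and Mup3 (0.0017), and with 1 array left out for Hspa1a (-0.82 to 0.079) and Hspb1 (-0.41 to 0.044), both highest without control replicate 2. Of the 82 named genes looked at, 31 shrank by over 1.5 times with the pseudocount of 16. With the mean of all probe sets 23 shrank so or reversed, and 11 shrank without normalization. With 1 array left out, the medians of 15 of 37 lists took the other sign, among them fatty acid synthesis (-0.0029 without replicate 2 of the 0.1% diet), glucocorticoid response (-0.081 without control replicate 1), B cell (0.31 without replicate 3 of the 0.1% diet), erythroid (-0.039 without control replicate 2), and muscle and acinar (-0.095 and -0.072 without control replicate 6). The cause was not tested. Dim signal limits the sizes given for Orm3, Cd3g, Zfp458 and Carlr.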
